A study of Mus musculus with 40 samples.

Results

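WT livers taken after 6 days on a purified diet (PD) were compared with WT livers taken after 3 days on it. The comparison took 9 of the 40 libraries of the series, namely the 4 titled as WT of day 6 (libraries 8, 10, 27, and 28) and the 5 titled as WT of day 3 (libraries 1, 5, 24, 25, and 26), and ran over the 20297 genes with adequate counts of the 55487 listed. The WT mice were females on a C57BL/6JBomTac background and were littermates of the hepatocyte-specific Nampt knockout (HNKO) mice. They carried both floxed Nampt alleles (Nampt fl/fl) without the Alb-Cre transgene, so that Nampt was not deleted, whereas the HNKO mice carried the same alleles with Alb-Cre, which is driven in hepatocytes. All mice were 9 weeks old when the diet began, as the study's methods give it, and had been reared on a fortified breeding chow. The sample labels enter the days on PD as the age of the mice. No group of mice on chow or of 0 days on PD was analysed here, so that the earlier of the 2 days serves as the reference. RNA came from whole liver, in which fewer cells of a type and less RNA per cell cannot be told apart. Total counts were 17638065 to 32364063 at day 3 and 21656496 to 26264567 at day 6, and in all 16 pairs of libraries of the same group the counts differed by more than sampling noise. The library numbers pass through the 4 days of the series once from 1 to 21 and again from 22 to 41. What these 2 label series stand for is not given in the sources used here, and each WT group holds libraries of both. Nampt, the gene deleted in HNKO hepatocytes, was 5.14 to 5.38 log2 CPM (log2 of the counts scaled to the library size) in the HNKO libraries of day 3, below all 9 WT libraries (5.84 to 7.28). At day 6 the HNKO libraries were 5.48 to 6.36, and the library labelled HNKO 7 was the highest of them, above 6 of 9 WT libraries.

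A change from a grain-based chow to a purified diet replaces the source of carbohydrate, fibre, fat, and vitamins of the animal, and the liver adjusts its lipid, bile acid, and amino acid enzymes to what it is fed. Hepatocytes also carry a circadian clock. In it, ARNTL (BMAL1) pairs with CLOCK or NPAS2 and activates genes through E-boxes, among them the repressors Per1, Per2, Per3, Cry1, Cry2, and Ciart and the output factors Dbp, Tef, and Hlf, which act through D-boxes. Nr1d1 and Nr1d2 encode REV-ERB repressors that hold Arntl, Npas2, Clock, and Nfil3 down, so that this set of genes is at its peak when the output set is at its trough. Levels are log2 CPM (prior count 2), a difference is a log2 fold change of day 6 over day 3, and a gene is called at an adjusted p under 0.05 over all 20297 genes by edgeR.

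No gene was called between day 6 and day 3 in WT livers (0 of 20297, 0% of the genes tested). The lowest adjusted p was 0.606 (edgeR), and 1063 genes (5.24%) had an unadjusted p under 0.05, of which 535 were higher and 528 were lower at day 6. The median SE of a log2 fold change was 0.22, so that for a typical gene a small change could not be seen with 4 against 5 mice. This SE rests on a spread per gene estimated over all 38 libraries, HNKO livers included. In the same fit, 158 genes (0.778%) were called between the same days in HNKO livers, 124 higher and 34 lower at day 6, and 11.1% had an unadjusted p under 0.05. Over the alternatives, this HNKO count ran from 12 (only the groups compared) to 453 (clock score as a covariate). The change in WT minus the change in HNKO was called for 1 gene (0.00493%). Later days of WT livers did differ from these, with 652 genes (3.21%) called at day 12 over day 3 and 1005 (4.95%) at day 21 over day 3, and with 454 (2.24%) and 815 (4.02%) over day 6. These comparisons share the WT libraries of day 3 or day 6. DESeq2, run on the same 20297 genes, called 5 genes in WT day 6 over day 3, and all are genes of skeletal muscle or are high in it (Myh1, Myh2, Myh4, Mb, and Eef1a2). None of them had more than 3 counts in any of the 9 libraries, and each was at 0 in all libraries of 1 of the 2 days. They reached 7690 counts for Myh1 in HNKO library 11 of day 12.

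**Figure D1:**
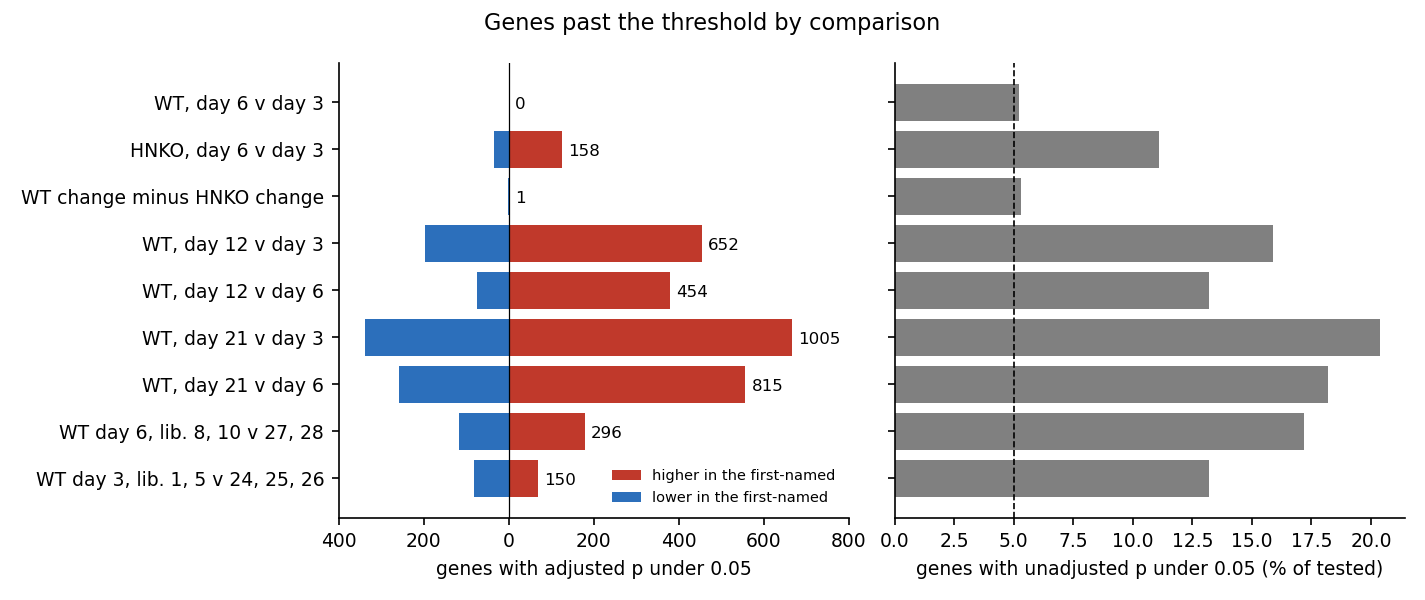
The left panel shows genes with an adjusted p under 0.05 (edgeR) for each comparison, with genes higher in the first-named group to the right of 0 and lower ones to the left, and the total beside the bar. The right panel shows the percentage of the 20297 tested genes with an unadjusted p under 0.05, with a dashed line at 5%. WT day 6 over day 3 has 0 called genes and 5.24%, while the 2 pairs of day-6 libraries of different label series (lib. 8, 10 v 27, 28) differ by 296 called genes and 17.2%.

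The genes with the smallest p-values did not pass the threshold and are given as values. Predicted genes with a Gm number or Rik name and pseudogenes were passed over in naming genes, and D730044K07Rik and Mup-ps10 among them had smaller p-values than any gene below. The lowest p among the other higher genes was that of Zfp28, a zinc finger gene, with 1.34, 0.99, 1.36, 1.08, and 1.05 log2 CPM in day-3 libraries 1, 5, 24, 25, and 26 and 2.18, 1.68, 1.99, and 2.03 in day-6 libraries 8, 10, 27, and 28. Its libraries did not overlap, and the difference was 0.83 (SE 0.19, adjusted p = 0.606, edgeR). Pid1, which encodes a protein that dampens insulin signalling, was 7.27, 7.37, 7.33, 7.19, and 7.08 at day 3 and 6.67, 6.53, 6.71, and 6.94 at day 6, again without overlap, a difference of -0.53 (SE 0.13, adjusted p = 0.606, edgeR). Zbtb33, the methyl-CpG binding repressor Kaiso, was 3.92, 3.92, 3.68, 3.73, and 3.72 at day 3 and 3.13, 3.27, 3.22, and 3.37 at day 6. Its difference was -0.55 (SE 0.13, adjusted p = 0.606, edgeR) in WT and -0.54 (SE 0.12, adjusted p = 0.033, edgeR) in HNKO livers, where it passed the threshold. Against day 3, Zbtb33 was at 0.39 (SE 0.12, adjusted p = 0.0806, edgeR) at day 12 and at 0.64 (SE 0.12, adjusted p = 0.00149, edgeR) at day 21 in WT, above and not below day 3.

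Other genes of small p belonged to metabolism. Ppp1r3g, a glycogen-targeting subunit of protein phosphatase 1, was 2.0, 0.43, 2.20, 2.49, and 1.05 log2 CPM at day 3 and 2.89, 4.36, 4.77, and 3.80 at day 6. Every day-6 library was above every day-3 library, and the difference was 2.31 (SE 0.64, adjusted p = 0.63, edgeR). Cyp2c70, the enzyme that makes muricholic acids in mice, was 9.91, 10.10, 9.66, 9.84, and 9.88 at day 3 and 9.20, 8.86, 9.27, and 9.26 at day 6, a difference of -0.73 (SE 0.21, adjusted p = 0.668, edgeR). Abcb11, the bile salt export pump, was 10.54, 10.30, 10.49, 10.61, and 10.40 at day 3 and 9.98, 9.51, 10.26, and 10.13 at day 6, and Nr0b2 (SHP), the bile acid responsive repressor, had a difference of -0.67 (SE 0.26, adjusted p = 0.83, edgeR). The libraries of Cyp2c70 and Abcb11 did not overlap between the days, while those of Nr0b2 did. Of all tested genes, 1.83% had libraries without overlap, and of the 112 genes named by the rule 16 had, which the choice by small p-values favours. Against day 3, the WT log2 fold changes of Nr0b2 were -0.90 (adjusted p = 0.0277, edgeR) at day 12 and -0.97 (adjusted p = 0.0133) at day 21, and those of Cyp2c70 were -0.72 (adjusted p = 0.0314, edgeR) and -0.87 (adjusted p = 0.00583). Both genes were thus called at the later days and not at day 6, although for Cyp2c70 the difference of -0.73 at day 6 was close to the -0.72 at day 12. All 3 comparisons use the same day-3 libraries.

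The clock genes set the day-6 livers apart from each other. The promoters of 2 clock genes are shown for this reason, those of Ciart, the clock gene with the largest difference between the day-6 libraries, and of Per3, both chosen after a search of the 18 of 22 clock genes that were matched in RefSeq (GRCm38.p6). Each stretch covers the 250 bases before the RefSeq start of the gene, on the minus strand, at chr3:95882229-95882478 for Ciart and chr4:151044666-151044915 for Per3. Capitals mark the E-box letters CACGTG in Ciart and the D-box letters TTATGTAA in Per3.
Ciart: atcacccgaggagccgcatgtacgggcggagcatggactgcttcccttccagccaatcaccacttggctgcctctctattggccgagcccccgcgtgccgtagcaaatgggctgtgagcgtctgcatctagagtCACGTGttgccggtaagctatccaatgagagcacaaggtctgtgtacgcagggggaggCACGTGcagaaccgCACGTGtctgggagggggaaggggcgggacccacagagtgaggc
Per3: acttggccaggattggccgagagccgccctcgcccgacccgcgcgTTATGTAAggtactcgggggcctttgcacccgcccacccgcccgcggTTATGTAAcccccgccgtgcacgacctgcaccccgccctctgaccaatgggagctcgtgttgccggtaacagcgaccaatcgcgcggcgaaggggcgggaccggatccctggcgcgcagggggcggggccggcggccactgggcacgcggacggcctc
Ciart holds 3 matches to CACGTG, the first starting 116 and the last 44 bases before the start of the gene. Per3 holds 2 matches to TTATGTAA, which start 205 and 158 bases before it. On either strand and in the same window, CACGTG occurs in 6.02% of the 32851 promoters and in 5 of the 18 matched clock genes (Bhlhe41, Ciart, Cry1, Per1, and Tef). TTATGTAA occurs in 0.819% of all promoters and in 1 of the 18, Per3. The matches describe the letters in these windows, and binding was not measured.

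Ciart (chromosome 3, 95878503 to 95882251 on GRCm38), a repressor of ARNTL and CLOCK, was 0.61, 2.33, 0.34, 1.62, and -0.57 log2 CPM in day-3 libraries 1, 5, 24, 25, and 26. In the day-6 libraries it was 5.26 and 5.57 in 8 and 10 but -1.28 and -0.27 in 27 and 28, so that the first pair lay above the whole day-3 group and library 27 below it. Per3 was 4.92, 5.67, 4.99, 5.07, and 4.45 at day 3, 7.22 and 7.24 in the first pair and 3.57 and 4.27 in the second, which placed the pairs on opposite sides of the day-3 livers. Dbp, an output factor, was 4.57 to 5.94 at day 3, 7.32 and 7.06 in libraries 8 and 10, and 2.84 and 3.99 in 27 and 28. Usp2, a deubiquitinase under clock control, was 0.52 to 3.70 at day 3, 5.88 and 5.76 in the first pair and 0.066 and -0.20 in the second. The activator genes ran the other way. Arntl was 4.51, 3.43, 4.25, 3.98, and 4.50 at day 3, only 1.27 and 1.22 in libraries 8 and 10, and 4.59 and 4.76 in 27 and 28. Npas2 was 0.10 to 2.11 at day 3, -0.56 and -2.15 in the first pair, and 2.53 and 2.78 in the second. Not every gene kept to these sets. The repressor gene Cry1 was 3.01 and 3.04 in libraries 8 and 10 and higher, at 3.12 and 3.29, in 27 and 28. Nr1d1 was 5.84 to 6.41 at day 3, and at 5.78 and 6.10 in libraries 8 and 10 it was not above that range. Arntl, Npas2, Dbp, Per3, Tef, and Usp2 (6 of 22 clock genes) had the pairs on opposite sides of the day-3 range, a position found in 1.05% of all tested genes. In 22 of 22 clock genes both libraries of one pair were above both of the other, as in 54% of all tested genes.

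**Figure D2:**
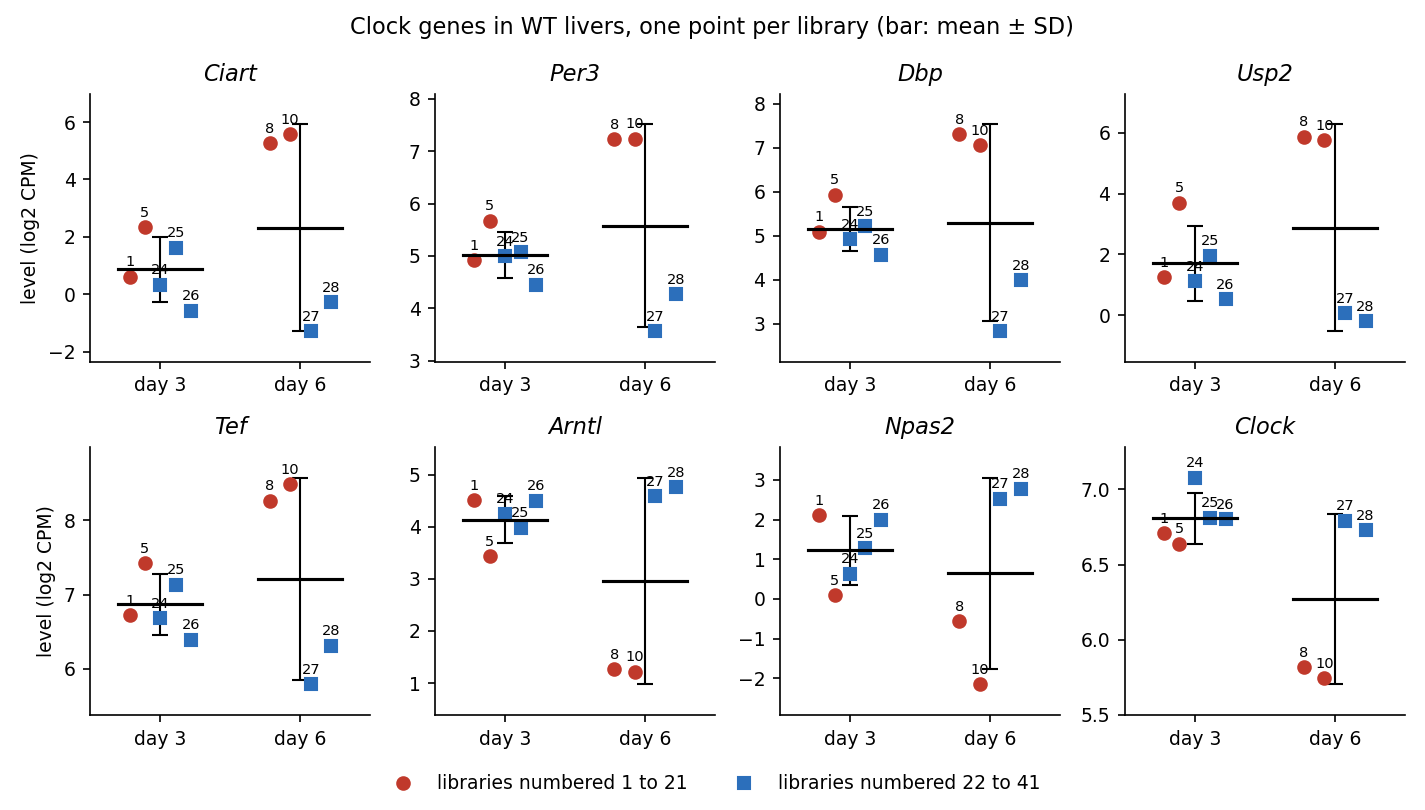
Each panel plots the level of 1 clock gene (log2 CPM) in the 5 day-3 and 4 day-6 WT libraries, with the library number above each point, circles for libraries numbered 1 to 21, squares for 22 to 41, and a line with a bar for the mean ± SD. At day 6, libraries 8 and 10 are high in Ciart, Per3, Dbp, Usp2, and Tef and low in Arntl, Npas2, and Clock, with libraries 27 and 28 the reverse, and the day-3 libraries lie mostly between them.

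The mean of the day-6 group lay between the pairs. For Ciart the day-6 over day-3 difference was 3.27 (SE 1.16, adjusted p = 0.82, edgeR) with a 95% interval of 0.92 to 5.62, and for Usp2 it was 2.68 (SE 1.07, adjusted p = 0.857, edgeR). Bhlhe41 and Npas2 had fitted differences of 0.38 and 0.33, while their mean levels were 1.09 and 1.23 at day 3 and 1.04 and 0.65 at day 6, so that the fitted ratio of counts and the mean log level differed in sign. Of the 22 clock genes, 18 were higher and 4 lower at day 6, 0 were called, and the median difference was 0.39 against 0.0028 over all genes. The median was 0.75 within libraries 1 to 21, -0.11 within libraries 22 to 41, and 0.15 without library 10. The median SD of the clock genes was 1.26 log2 CPM at day 6 against 0.44 at day 3, while over all genes it was 0.27 and 0.28. It was 0.94 in WT at day 12, 0.29 in WT at day 21, and 0.38 and 0.70 in HNKO at days 3 and 6, so that a wide spread was not limited to WT day 6. An SD over 1 was found for 13 of 22 clock genes at day 6 and 4 at day 3 (10 in WT at day 12 and 8 in HNKO at day 6), against 3.46% and 3.24% of all genes. The reads of Dbp, Ciart, Nr1d1, and Per3 can be shared in part with overlapping genes (Sphk2, C920021L13Rik, Thra, and Camta1), the first 3 on the opposite strand, since the use of strand in counting is not given in the sources used here.

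A clock score, the mean log2 CPM of Arntl, Npas2, Clock, and Nfil3 minus that of Dbp, Tef, Hlf, Nr1d1, Nr1d2, Per1, Per2, Per3, and Ciart, summarised these genes in each liver. It was -4.33 and -4.62 in day-6 libraries 8 and 10 and 0.80 and 0.45 in 27 and 28. At day 3 it was -0.51, -2.16, -0.71, -1.07, and 0.33 in libraries 1, 5, 24, 25, and 26. The means of day 6 and day 3 (-1.92 ± 2.95, SD, n = 4, and -0.82 ± 0.91, SD, n = 5) did not differ beyond this spread (exact permutation test, two-sided, p = 0.429, where 0.00794 is the smallest p possible). One later WT liver, library 16 of day 12, had a score of -4.99 and 5.42 log2 CPM of Ciart, near libraries 8 and 10, while the other 4 of day 12 scored 0.11 to 0.96. The 5 WT livers of day 21 scored -3.62 to -2.42. The hour at which the mice of each day were killed is not given in the sources used here, and whether it differed between the pairs was not tested.

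**Figure D3:**
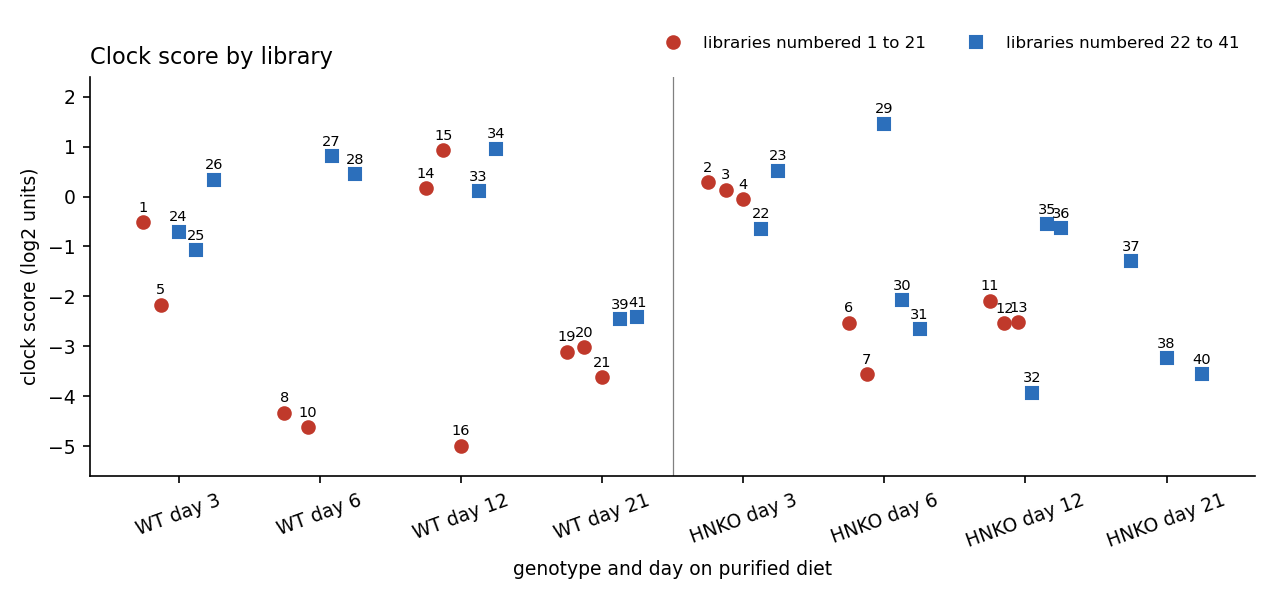
Clock score (log2 units) of each of the 38 libraries in the fit, by genotype and day on PD, with the library number above each point, circles for libraries 1 to 21 and squares for 22 to 41. WT day 6 splits into libraries 8 and 10, at -4.33 and -4.62, and libraries 27 and 28 above 0, while the 5 WT livers of day 3 lie between -2.16 and 0.33.

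The split was not limited to the clock. Between day-6 libraries 8 and 10 and libraries 27 and 28, 296 genes (1.46%) were called, 179 higher and 117 lower in the first pair, and 17.2% of all genes had an unadjusted p under 0.05. Among the clock genes Arntl passed with -3.47 (SE 0.88, adjusted p = 0.0424, edgeR) and Usp2 with 5.99 (SE 1.51, adjusted p = 0.0422, edgeR), and Ciart did not pass with 6.24 (SE 1.68, adjusted p = 0.0554, edgeR). The same label series at day 3 (libraries 1 and 5 against 24, 25, and 26) differed by 150 called genes (0.739%), those at day 12 by 257 (1.27%), and those at day 21 by 0 (0%, with a lowest adjusted p of 0.196 and 1202 genes at an unadjusted p under 0.05, edgeR). Of the day-6 and day-3 genes, 44 were called at both days, which is 14.9% of the day-6 and 29.3% of the day-3 genes, and all 44 had the same direction at both. At day 3, the log2 differences of Arntl and Usp2 between the series were -0.19 (adjusted p = 0.952, edgeR) and 1.61 (adjusted p = 0.604). Within libraries 1 to 21, 0 genes were called at day 6 over day 3 with 1528 (7.53%) at an unadjusted p under 0.05, and within libraries 22 to 41, 0 were called with 826 (4.07%). The difference of the day 6 over day 3 change between the series was called for 0 genes (5.75% at an unadjusted p under 0.05).

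Nampt (chromosome 12, 32819545 to 32853349), which makes nicotinamide mononucleotide in NAD salvage and is itself an E-box target of the clock, was intact in these mice and followed the pairs. It was 6.15, 6.57, 6.32, 6.06, and 5.84 log2 CPM in day-3 libraries 1, 5, 24, 25, and 26. In day-6 libraries 8 and 10 it was 7.28 and 7.09, above all day-3 livers, and in 27 and 28 it was 6.00 and 5.99, within their range. The pooled difference was 0.50 (SE 0.24, adjusted p = 0.935, edgeR), with 0.82 within libraries 1 to 21 and -0.093 within 22 to 41. Part of its fragments can belong to Gdap10, which overlaps it on the same strand. Nmrk1, the nicotinamide riboside kinase that feeds the same salvage step, was 4.05 to 4.53 at day 3, 5.72 and 5.63 in libraries 8 and 10, and 4.38 and 4.05 in 27 and 28. Nmnat3, the mitochondrial enzyme that turns the mononucleotide into NAD, was above all day-3 livers in both pairs, though higher in libraries 8 and 10. It was 3.42, 3.39, 3.34, 3.48, and 3.51 at day 3 and 3.95, 4.14, 3.92, and 3.59 at day 6 without overlap, a difference of 0.49 (SE 0.13, adjusted p = 0.606, edgeR). Of the 34 genes of NAD metabolism tested, 0 were called in WT, 23 were higher and 11 lower at day 6, and the median difference was 0.056. An unadjusted p under 0.05 was found for 7 of the 34, against 5.24% of all genes. Without library 26, 20 of 34 were higher with a median of 0.034, and 4 had an unadjusted p under 0.05.

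No gene of lipid or nutrient metabolism was called. Of the genes of fatty acid and triglyceride synthesis, 18 of 20 were higher at day 6 with a median difference of 0.27, while the median in HNKO livers was -0.24. Their summed level was 13586 to 43752 CPM over the day-3 and 15694 to 47574 CPM over the day-6 libraries, a wide and overlapping range. With 1 library left out, the median was from -0.0074 (without library 27) to 0.56 (without library 10), and it was 0.030 within libraries 1 to 21 and 0.45 within 22 to 41. Of the genes of fatty acid oxidation and other targets of PPARA, 28 of 30 were higher, with a median of 0.20 that was 0.092 without library 1. It was 0.35 within libraries 1 to 21 and 0.078 within 22 to 41. Among these genes, Acot3, an acyl-CoA thioesterase, was 3.77, 5.80, 6.92, 5.61, and 5.37 log2 CPM at day 3 and 7.84, 7.58, 7.26, and 5.29 at day 6, a difference of 1.46 (SE 0.55, adjusted p = 0.827, edgeR), and Cd36, a fatty acid receptor, had a difference of 0.67 (SE 0.27, adjusted p = 0.857, edgeR) that was 0.32 without library 27. Cholesterol genes were higher in 18 of 25 cases with a median of 0.094. This median was -0.078 without library 27 and 0.30 without library 26, where 22 of 25 were higher. For bile acid synthesis and transport 12 of 24 genes were higher (median 0.0061), for glucose metabolism 15 of 23 (0.10), for amino acid catabolism and the urea cycle 20 of 28 (0.13), for cytochrome P450 genes 18 of 33 (0.031), and for conjugation and antioxidant enzymes 15 of 31 (-0.0039). With 1 library left out, the bile acid, cytochrome P450, and conjugation medians changed sign, and those for glucose and amino acids were as low as 0.049 (without library 26) and 0.040 (without library 10).

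Growth hormone pulses set the sex-biased genes of the liver. On the list of these genes 17 of 23 were lower at day 6, with a median of -0.35 (-0.22 without library 5) and 0 called. Mup21, a major urinary protein, was 3.24, 3.31, 1.84, 3.32, and 3.75 log2 CPM at day 3 and 1.81, 2.88, 1.30, and 2.15 at day 6, a difference of -1.08 (SE 0.40, adjusted p = 0.827, edgeR). Slco1a1, an organic anion and bile acid importer that is higher in male liver, was chosen after its values were seen. It was within 7.92 to 8.27 in the 5 day-3 libraries and 7.45, 7.13, 4.21, and 5.72 in day-6 libraries 8, 10, 27, and 28. All day-6 livers were below all day-3 livers, and with the spread of the day-6 group the difference was -1.45 (SE 0.74, adjusted p = 0.948, edgeR). Hsd3b5, a steroid dehydrogenase that is also male-biased and was also chosen after its values were seen, was 5.12, 5.0, 2.69, 3.26, and 4.98 at day 3 and 3.62, 2.10, -1.28, and 0.85 at day 6, with some overlap (-2.30 (SE 1.10, adjusted p = 0.932, edgeR)). Mean levels of Slco1a1 at days 12 and 21 were 5.74 ± 0.46 and 5.92 ± 1.5 log2 CPM (SD, n = 5 each), against 8.04 ± 0.13 (SD, n = 5) at day 3.

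The acute phase list held the 1 gene whose change differed between WT and HNKO livers. Acute phase genes encode plasma proteins that hepatocytes release in response to interleukins 1 and 6. The list also held the receptor gene Il1r1 and the metallothionein genes Mt1 and Mt2, which do not encode such proteins. In WT, 24 of 30 were lower at day 6, 0 were called, and the median difference was -0.13, with -0.17 within libraries 1 to 21 and -0.14 within 22 to 41, -0.21 without library 8, and -0.076 without library 5. In HNKO livers the median was 0.65 and 10 of 30 were called, all higher, against 0.611% of all genes. Saa3, a serum amyloid A made at sites of inflammation, was 1.88, 1.53, 1.84, 1.36, and 1.48 log2 CPM in WT at day 3 and 1.30, 1.19, 0.79, and 0.42 at day 6. In HNKO libraries it was 1.91, 1.88, 0.94, 2.04, and 1.95 at day 3 (libraries 2, 3, 4, 22, and 23) and 4.67, 3.21, 5.85, 5.25, and 4.99 at day 6 (libraries 6, 7, 29, 30, and 31). Thus it lay lower at day 6 in all WT livers and higher at day 6 in all HNKO livers. The differences were -0.69 (SE 0.51, adjusted p = 0.998, edgeR) in WT and 3.25 (SE 0.46, adjusted p = 0.000294, edgeR) in HNKO, and the WT difference minus the HNKO difference was -3.94 (SE 0.68, adjusted p = 0.0294, edgeR). Saa3 was the only gene of 20297 called for that difference, so it is named after its values were seen. The call was lost in 13 of 30 alternatives, with an adjusted p of 7.88e-05 to 0.189 (edgeR or DESeq2) and a log2 difference of -4.18 to -3.64 over all 30. The 13 were the fit of all 40 libraries, robust estimation, the fit with 1 mean per label series, and the fits without WT library 1, 5, 10, 24, 27, or 28 or HNKO library 2, 4, 30, or 31, of which those 10 gave an adjusted p of 0.0523 to 0.189 (edgeR). Without the library labelled HNKO 7 it was -4.18 (adjusted p = 0.00351, edgeR).

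**Figure D4:**
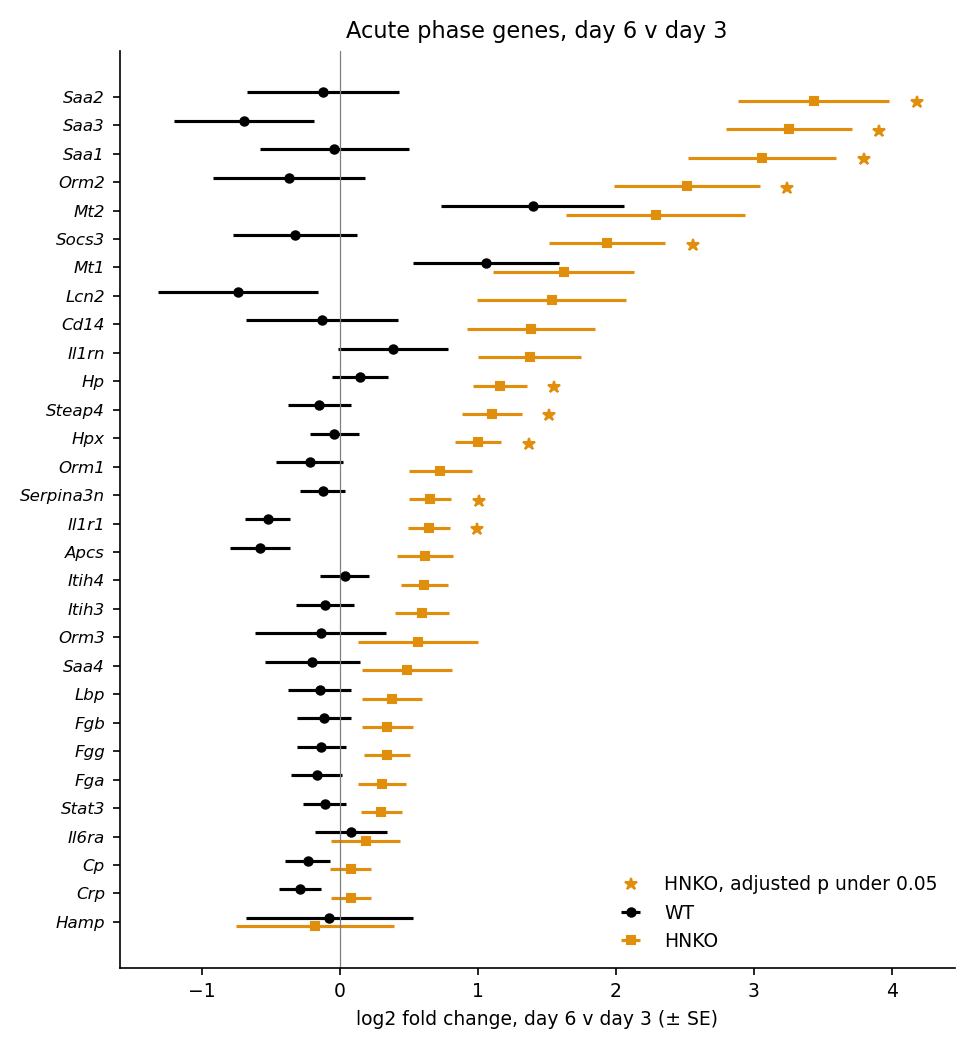
Log2 fold change of day 6 over day 3 (± SE) for the 30 acute phase genes in WT (circles) and HNKO (squares) livers, ordered by the HNKO value. Stars mark HNKO genes with an adjusted p under 0.05, which are 10 of 30, and 0 WT genes passed it. WT values run from -0.74 for Lcn2 to 1.40 for Mt2.

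Il1r1, the receptor of interleukin 1, was 5.61, 5.71, 5.73, 5.68, and 4.98 log2 CPM at day 3 and 5.38, 4.99, 4.82, and 4.93 at day 6 in WT, a difference of -0.52 (SE 0.16, adjusted p = 0.732, edgeR), against 0.65 (SE 0.15, adjusted p = 0.034, edgeR) in HNKO. The test of the difference between genotypes gave -1.17 (SE 0.22, adjusted p = 0.0668, edgeR). Part of its fragments can belong to Gm38070, which overlaps it on the same strand. Library 26, at 4.98, was the only day-3 liver within the day-6 range. This difference passed the threshold without library 26, at -1.28 (SE 0.21, adjusted p = 0.0136, edgeR), and also without WT library 8 (adjusted p = 0.039, edgeR), HNKO library 22 (0.00079), or HNKO library 29 (0.0379). It passed as well without a filter, with at least 10 counts in every library, and with the clock score as a covariate (adjusted p = 0.0428, 0.0363, and 0.0396, edgeR), and with DESeq2 (adjusted p = 0.00239). Apcs, serum amyloid P, had a WT difference of -0.58 (SE 0.22, adjusted p = 0.827, edgeR) and an HNKO difference of 0.62 (SE 0.20, adjusted p = 0.158, edgeR). The metallothionein genes Mt1 and Mt2, on the same list for their induction in inflammation and by zinc, were among the 6 of 30 that were higher in WT. Mt2 was 3.6, 4.38, 1.29, 5.15, and 2.77 at day 3 and 4.52, 5.28, 6.28, and 4.65 at day 6, with a difference of 1.40 (SE 0.66, adjusted p = 0.931, edgeR) in WT, which was 0.89 without library 27, and 2.29 (SE 0.65, adjusted p = 0.0816, edgeR) in HNKO. Of the 7 neutrophil markers tested, 0 were called in WT with a median of -0.048 (-0.28 without library 5 and 0.025 without library 28), and 4 were called in HNKO, all higher (0.611% of all genes), with a median of 1.98. Their summed level was 5.46 to 7.85 CPM in WT at day 3 and 4.84 to 7.16 at day 6, and 5.86 to 13.6 and 20.4 to 65.5 in HNKO. S100a9, a subunit of calprotectin, was -0.68, -0.93, 0.19, -0.18, and 0.30 log2 CPM in WT at day 3 and -0.76, -0.083, -0.50, and -0.90 at day 6. By edgeR, the difference between genotypes was called for 0 of the 7 neutrophil genes and, beside Saa3, for 0 of the 29 other acute phase genes. DESeq2 also called the acute phase genes Saa2 at -3.56 (adjusted p = 0.0109) and Hpx, the heme scavenger hemopexin, at -1.05 (adjusted p = 0.0169). Without HNKO library 3, edgeR called Saa2 too (adjusted p = 0.0392). The 12 genes that DESeq2 called for the difference between genotypes also held Slfn4 (-3.15, adjusted p = 0.00154), F13a1, Ccr3, Il17ra, Slc37a1, B3galt1, Serpina10, and Ctrb1. All of them were negative but Ctrb1 (20.1, SE 4.6). By edgeR, Slfn4 was also called without a filter, with the clock score as a covariate, and without HNKO library 6, 7, or 23. Saa2, Hpx, and these genes are named after their values were seen.

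Markers of cell types showed that one day-3 liver stood apart. In library 26 the 9 tested B and plasma cell markers summed to 303 CPM, against 22 to 25.2 in the other 4 day-3 and 16.7 to 27 in the day-6 libraries, and none of them was at 0 in any of the 9. Ighm, the IgM heavy chain, was 7.29 log2 CPM in library 26 and 2.73 to 3.48 in the other day-3 livers. The 6 adipocyte markers summed to 50.7 CPM in library 26 and 8.98 to 13 CPM in the other 8. Adipoq and Plin1 were at 0 counts in the other 4 day-3 livers and at 112 and 62 counts in library 26. The 6 mesothelial markers summed to 14.5 CPM in library 26, 4.16 to 8.11 in the other day-3 livers, 3.77 and 4.41 in libraries 8 and 10, and 1.17 and 0.843 in 27 and 28. The 10 T and NK cell markers summed to 12.4 CPM in library 26 and 5.64 to 8.72 CPM in the other 8. The 12 tested Kupffer cell and macrophage markers summed to 619 CPM in library 26, below the other 8 at 731 to 925 CPM. The part of these markers in the other results was not tested beyond the values without library 26 given here.

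**Figure D5:**
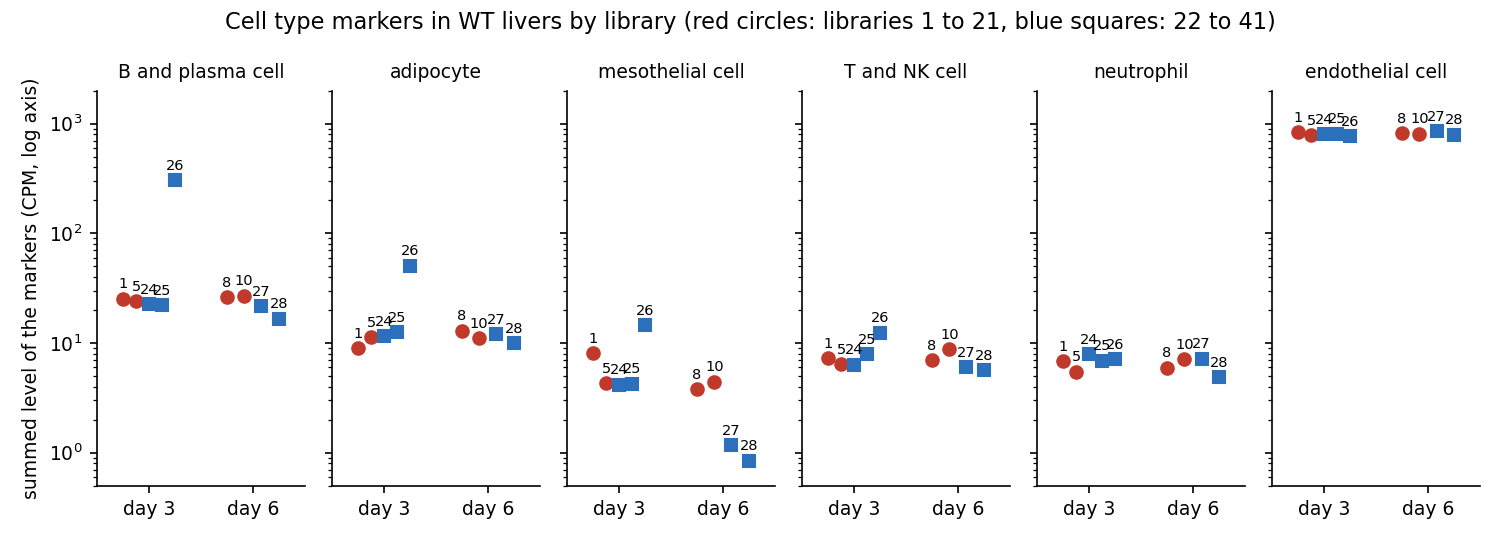
Summed level of each marker list (CPM, logarithmic axis) in the 5 day-3 and 4 day-6 WT libraries, with the library number above each point. Library 26 lies above all others for B and plasma cell, adipocyte, mesothelial, and T and NK cell markers among the others for neutrophil markers, and lowest for endothelial markers (768 CPM against 783 to 853).

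Immunoglobulin genes were among the lower genes of smallest p, and library 26 had the highest level of each. Ighv3-6 was -3.26, -2.62, -0.72, -0.65, and 2.07 log2 CPM at day 3 and -3.12, -3.02, -2.56, and -2.68 at day 6, a difference of -3.87 (SE 0.98, adjusted p = 0.606, edgeR) that was -2.03 without library 26. Ighg1, an IgG heavy chain, was -2.87, -3.09, 0.69, 0.38, and 2.12 log2 CPM at day 3 and -2.66, -3.80, -1.91, and -3.80 at day 6. For both genes libraries 24 and 25 also lay above libraries 1 and 5 and above all day-6 livers. The difference of Ighg1 was -4.28 (SE 1.13, adjusted p = 0.606, edgeR), and -3.25 without library 26. Ighm was at -2.20 (SE 0.68, adjusted p = 0.7, edgeR) and 0.032 without library 26. Fragments of V segments and of constant regions of this multigene family can be assigned to a near-identical copy, so that their counts are uncertain. All 9 B and plasma cell markers were lower at day 6 with a median of -1.35, and without library 26 they were lower in 5 of 9 with a median of -0.059. For the adipocyte list the median went from -2.87 to 0.34, and for the T and NK cell list from -0.29 to -0.044. The mesothelial markers were lower in 6 of 6 cases with a median of -1.59, and without library 26 in 6 of 6 with -1.01. Msln, mesothelin, was 0.99, -0.59, 0.19, 0.13, and 1.24 log2 CPM at day 3 and -0.65, -0.34, -2.20, and -3.13 at day 6, and the lowest levels were those of libraries 27 and 28. No gene was called without library 26 either, and 1115 had an unadjusted p under 0.05.

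None of the hepatocyte identity genes was called. Alb, the albumin gene, was 16.51, 16.53, 16.61, 16.57, and 16.50 log2 CPM at day 3 and 16.60, 16.65, 16.57, and 16.47 at day 6, a difference of 0.029 with a 95% interval of -0.35 to 0.41. Intervals and SEs rest on a spread per gene over all 38 libraries, so that HNKO livers (Alb 15.38 to 16.50) enter them. The 7 tested hepatocyte markers had a median of 0.029, the 12 pericentral genes -0.027, and the 12 periportal genes -0.0049. With 1 library left out, these medians were -0.028 to 0.054, -0.14 to 0.085, and -0.086 to 0.050, and without library 26 the pericentral median was -0.13 with 11 of 12 genes lower. Within the pericentral list, Lgr5, a WNT target of the cells around the central vein, had a difference of -0.51 (SE 0.23, adjusted p = 0.912, edgeR), and Cdh1, the periportal cadherin, was 6.51, 5.96, 5.58, 5.78, and 5.80 at day 3 and 5.23, 5.05, 5.37, and 5.75 at day 6 (-0.59 (SE 0.20, adjusted p = 0.772, edgeR)). Of the bile duct and oval cell genes, Spp1 (osteopontin) was 5.29, 5.24, 5.30, 5.22, and 5.26 at day 3 and 5.22, 4.85, 5.05, and 5.34 at day 6 in WT, with a 95% interval of the difference of -0.87 to 0.60. The WT differences of Epcam, Krt7, Sox9, and Ncam1 were 0.040, -0.47, -0.10, and -0.36, each smaller than 1 SE of 0.33, 0.50, 0.29, and 0.57. Krt19, a keratin of bile duct cells, had a difference of -0.96 (SE 0.79, adjusted p = 0.998, edgeR). The 8 tested bile duct genes were lower in 7 of 8 cases with a median of -0.29, and without library 26 in 8 of 8 with -0.16, and 0 were called. They summed to 43.2 to 50.3 CPM at day 3 and 35 to 47 at day 6. Kupffer cell and macrophage markers were higher in 7 of 12 cases with a median of 0.012, and without library 26 lower in 10 of 12 with -0.053. The medians were 0.035 for endothelial markers (0.0026 without library 26), -0.097 for stellate cell markers, 0.37 for erythroid markers (-0.037 without library 27), and -0.36 for the 5 tested pancreatic acinar markers (-0.20 without library 25), with 0 genes called in each list.

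Extracellular matrix genes were lower at day 6 in 23 of 27 cases, with a median of -0.29 in WT against 0.20 in HNKO livers, and 0 were called in either. Col1a1, the alpha 1 chain of type I collagen, was 3.76, 2.29, 3.87, 3.59, and 4.17 log2 CPM at day 3 and 2.07, 1.68, 3.04, and 2.43 at day 6. Its difference was -1.28 (SE 0.62, adjusted p = 0.935, edgeR), and Col3a1 had -0.88 (SE 0.49, adjusted p = 0.948, edgeR). The median of the list was -0.37 and -0.35 within the label series and -0.27 without library 26. Interferon-stimulated genes were lower in 22 of 35 cases with a median of -0.050, from -0.26 within libraries 1 to 21 to 0.10 within 22 to 41. Cell cycle genes were lower in 23 of 34 cases with a median of -0.25, which ranged from -0.44 (without library 27) to -0.033 (without library 24). It was -0.076 within libraries 1 to 21 and -0.42 within 22 to 41. Ccne1, cyclin E1, was above all day-3 livers in libraries 8 and 10, at 1.02 and 0.64 log2 CPM, with -0.97 and -0.69 in 27 and 28 and -2.31 to -0.57 at day 3. The medians were 0.10 for heat shock and ER chaperones, 0.083 for immediate early genes, 0.071 for glucocorticoid-responsive genes, and 0.024 for serine synthesis and the integrated stress response. With 1 library left out they were 0.059 to 0.17, 0.015 to 0.21, 0.048 to 0.23, and -0.012 to 0.051. Over all 34 lists, 601 genes were tested, 0 were called, and 54 had an unadjusted p under 0.05, against 5.24% of all genes.

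Reads of the mitochondrial genome were 5.69, 5.17, 4.87, 5.7, and 5.28% of the counts in day-3 libraries 1, 5, 24, 25, and 26 and 7.5, 6.14, 6.59, and 6.48% in day-6 libraries 8, 10, 27, and 28, so that the groups did not overlap. The means were 6.68% ± 0.58 (SD, n = 4) and 5.34% ± 0.35 (SD, n = 5), and an exact permutation test (two-sided) gave p = 0.00794, the smallest it can give. Adjusted over the 8 exact tests of single values that were run, this was 0.0635 (exact permutation test) and did not pass, although the share was higher in 4 of 4 day-6 libraries. The measure was chosen after its values were seen. The 2 ribosomal RNAs of mitochondria (mt-Rnr1 and mt-Rnr2) made up 4.2% ± 0.51 at day 6 (SD, n = 4) and 3.12% ± 0.51 at day 3 (SD, n = 5, exact permutation p = 0.0317, 0.127 adjusted over the 8). All other mitochondrial transcripts together took 2.47% ± 0.41 and 2.22% ± 0.47 (SD, n = 4 and 5, exact permutation p = 0.421). This last share was higher in each of the 4 WT libraries numbered 1 to 21 than in each of the 5 numbered 22 to 41, and the pooled test does not take the label series into account. Within libraries 1 to 21 it was 2.81 and 2.67% at day 3 and 2.94 and 2.69% at day 6, which overlap. Within libraries 22 to 41 it was 1.85, 1.82, and 1.96% at day 3 and 2.13 and 2.13% at day 6, which do not. Ribosomal RNA was depleted with RiboZero in preparing these libraries, and the part of that step in the share was not tested. As single genes, mt-Rnr1 and mt-Rnr2 had differences of 0.54 (SE 0.28, adjusted p = 0.948, edgeR) and 0.45 (SE 0.27, adjusted p = 0.977, edgeR). In HNKO livers the share was 5.29% ± 0.43 at day 3 and 5.1% ± 0.83 at day 6 (SD, n = 5 each, exact permutation p = 0.683).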

How the data were processed

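Libraries were grouped by the titles in the sample labels. Per the labels and the study's methods, total RNA was depleted of rRNA (RiboZero) and sequenced with 51-bp paired-end reads, and the authors aligned them with STAR 2.7.2b to GRCm38 and counted fragments with both ends aligned on GENCODE M22 genes with featureCounts 1.6.4. They deposited raw counts per gene, without normalization. Here, 38 libraries were fitted (2 HNKO libraries of day 21 failed the authors' quality control) with edgeR 4.0.16 in R 4.3.3, after its filter on low counts (minimum count 10, total 15, proportion 0.7), with TMM scaling, 1 mean per genotype and day, the quasi-likelihood test in its legacy computation, and Benjamini-Hochberg adjustment. P-values measure the spread between mice, and those of the main edgeR fit take 1 spread per gene from all 38 libraries of both genotypes. The fits were tested on simulated data.

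Named genes were the 10 higher and 10 lower genes of smallest p (none being past the threshold), with predicted genes of a Gm number or Rik name and pseudogenes passed over, Nampt, Alb, and the ductal genes of the study, all clock genes, and up to 2 genes per other list of smallest p. Of these genes, 2 are not reported here. The members and the 34 gene lists were chosen with earlier results of these data known. Promoters came from RefSeq. Alternatives were other size factors (RLE), DESeq2 1.42.0, other filters, other sets of libraries, the edgeR 4 computation, robust estimation, covariates, each label series, exact permutation, and leaving out each library.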

Additional observations from a re-analysis of the deposited data

Results flagged for a closer look

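In the groups of 5 and 4 WT libraries, 14 of 220 gene and group combinations of the named genes had 1 library set apart by Dixon's criterion, where chance gives about 1 in 20, or 11. Library 26 of day 3 accounted for 6 of the 14. It had the highest log2 CPM of its group for Ighm (7.29, next 3.48), Jchain (4.76, next 1.61), and Cfd (3.84, next -2.23), which are markers of B and plasma cells and of adipocytes. It was also highest for Cry1 (3.04, next 2.69) and lowest for Hlf (4.73, next 5.42) and Il1r1 (4.98, next 5.61).

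In the other day-3 libraries, library 24 was set apart for Aldh3b3 (2.14) and Mup21 (1.84) and library 5 for Col5a2 (2.99) and Per2 (5.38). At day 6, library 10 was set apart for Cd8a (-0.77), library 28 for Fosb (-2.33), and, among values at or near 0 counts, library 27 for Igkv19-93 (-3.05) and library 8 for Retn (-3.12), all in log2 CPM.

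The day 6 over day 3 change of Saa3 differed between the genotypes by -3.94 on the log2 scale (SE 0.68, adjusted p = 0.0294, edgeR), the WT change minus the HNKO change.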

How the results depend on the processing

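For WT day 6 over day 3, 0 genes were called under every alternative but DESeq2, which called 5, and 0 with each of the 9 libraries left out in turn. The HNKO count of 158 was 340 with DESeq2, 97 without a filter, 30 with all 40 libraries, 12 with only the groups compared, 252 with the label series and 453 with the clock score as a covariate, and 38 to 242 with 1 library left out. The lower counts were those without HNKO libraries 3 (76), 4 (38), 7 (83), 22 (65), and 30 (47), and the highest that without library 23 (242). The 1 gene called for the difference between genotypes became 12 with DESeq2, 3 without a filter, 2 with at least 10 counts in every library, 0 with all 40 libraries, 2 with the edgeR 4 computation, 0 with robust estimation, 3 with the clock score, 0 with 1 mean per label series, and 0 to 3 with 1 library left out. With 1 library left out, the adjusted p of Saa3 was highest without WT libraries 27 and 28 (0.128 and 0.189, edgeR) and lowest without HNKO library 7 (0.00351). The cause of these moves was not tested.

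The fit with 1 mean per label series was chosen after seeing the data. Named genes that changed sign, none past the threshold in either form, had the following log2 fold changes. Within libraries 22 to 41 they were Alb -0.042, Arntl 0.42, Bhlhe41 -1.24, Ciart -1.54, Cry2 -0.068, Dbp -1.40, Hlf -0.35, Irgm1 0.00077, Nampt -0.093, Nfil3 0.21, Nr1d2 -0.39, Per1 -0.66, Per2 -0.078, Per3 -0.90, Sox9 0.28, Tef -0.69, and Usp2 -1.47. Within libraries 1 to 21 they were Cd3g 0.035, Cfd 2.84, Epcam -0.0034, Ighm 0.0081, Lyve1 0.18, Npas2 -2.75, Retn 2.63, S100a8 0.049, and S100a9 0.44. With the clock score as a covariate they were Alb -0.014, Bhlhe40 -0.0083, Bhlhe41 -0.88, Dbp -0.73, Hlf -0.11, Nr1d2 -0.10, Per1 -0.024, Per3 -0.23, Sox9 0.032, Spp1 0.034, and Tef -0.19, with 1 mean per label series Bhlhe41 -0.24 and Npas2 -0.75, and as differences of mean log2 CPM Bhlhe41 -0.051, Npas2 -0.58, and Sox9 0.011. With 1 library left out the ranges were Bhlhe40 -0.10 to 0.28, Bhlhe41 -0.12 to 0.73, Cfd -7.17 to 0.63, Epcam -0.040 to 0.099, Hba-a1 -0.057 to 0.64, Hlf -0.015 to 0.38, Ighm -2.47 to 0.032, Nfil3 -0.66 to 0.051, Npas2 -0.29 to 0.73, and Sox9 -0.23 to 0.21. No paired analysis was possible because the library numbers of the groups compared are all different. With 1 WT library left out, 56 of 112 named genes and 32 of 34 list medians moved by over 1.5 times or turned. The effect of depth was not tested.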
